A study of Mus musculus with 10 samples.

Results

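Adcy1, a calcium- and calmodulin-stimulated adenylyl cyclase best known from neurons, and 9 other genes of cyclic AMP (cAMP) signalling were followed in mouse liver hepatocytes labelled EP300 KO and EP300 WT. The titles of these samples begin with HCC, the short form of hepatocellular carcinoma. EP300 is a histone acetyltransferase and transcriptional coactivator. The 10 genes were Adcy1, Adcy6, Adcy9, Pde4b, Pde4d, Gcgr, Prkaca, Prkar1a, Creb1 and Crem, picked by name out of 55385 gene identifiers in the EP300 count table, and all 10 passed the filter on low counts that left 14200 genes to test. They were picked with the difference between EP300 KO and EP300 WT already known, Adcy1 for its fall. Their values are therefore given as a description, and test calls for them are counted but not used as support. Other genes of the pathway were taken from 11 lists by role, which add 105 genes.

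All 4 EP300 libraries came from C57BL/6J 129SV mice of 5 months that carried floxed EP300, were fed DDC, which damages hepatocytes and the biliary tree, and received the pT3-cMet plasmid by hydrodynamic tail vein injection (HTVi). The EP300 KO group (labelled EP300-/-, 2 libraries) also received AAV-TBG-Cre, a virus that expresses Cre from the hepatocyte promoter TBG. The EP300 WT group (labelled EP300f/f, 2 libraries) received AAV-TBG-GFP in its place. Cells of perfused livers were sorted by FACS before RNA was extracted. Sequencing was pooled per the labels, and nothing in them says which animal a library came from. The p-values below therefore reflect the spread among these 4 libraries alone, and that spread could be technical. The series holds 6 further libraries of cMet-injected mice with or without DDC, whose gene identifiers are not paired with names in the sources used here, and these were not analysed here.

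In the liver, glucagon released on fasting binds its receptor GCGR, which acts through a stimulatory G protein on adenylyl cyclases. These make cAMP from ATP, and phosphodiesterases break it down. Cyclic AMP frees the catalytic subunits of protein kinase A (PKA) from its regulatory subunits, and PKA phosphorylates CREB, which binds the cAMP response element in promoters of genes such as those of gluconeogenesis. EP300 and its close relative CREBBP are coactivators that are recruited to CREB.

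Ep300 mRNA was measured first, as a check of the labels. Its normalised count, in CPM of the TMM-scaled library (counts scaled to a common library size), was 73.7 and 72.3 in the libraries labelled EP300 KO, against 62.3 and 57.9 in those labelled EP300 WT. It was thus higher in the KO-labelled libraries, by 0.28 on the log2 scale (SE 0.07, adjusted p = 0.00498 by edgeR's quasi-likelihood test with Benjamini-Hochberg adjustment over 14200 genes), and it lost the call without WT replicate 2 (adjusted p = 0.128). A count over the whole gene includes exons outside a floxed part, and the labels do not say which exons are floxed, so the count does not check the deletion, and the groups are named here by their labels. The libraries held 17709799 and 17811489 counts under the KO label, against 18575701 and 18831671 under the WT label. Xist, an RNA of the inactive X chromosome, had 2310 and 1411 counts in the KO-labelled libraries, against 3 and 2 in the WT-labelled ones, while the Y-linked gene Ddx3y had 954 and 813 counts against 1079 and 1077. The KO-labelled libraries thus carry both, and what part this has in the values below was not tested. Over all genes tested, 34.2% passed at an adjusted p of 0.05 (16.7% higher and 17.5% lower in the KO-labelled libraries), and 66.4% had groups whose CPM did not overlap. The counts of passing genes by list below are to be read beside these shares.

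Among the adenylyl cyclases, Adcy1 was the member that stood apart. It lies on chromosome 11 at 7063489 to 7178506 on the plus strand (mm10, GENCODE M21; ENSMUSG00000020431), and no base of its exons is shared with another gene. Its raw counts were 52 and 68 in the KO-labelled libraries, against 1350 and 1261 in the WT-labelled libraries. As normalised counts these were 3.01 and 3.91 CPM under the KO label and 71.1 and 65.5 CPM under the WT label. Both KO-labelled libraries were thus far below both WT-labelled libraries, and the gap between the labels was many times that within them. The mean was 3.46 ± 0.636 CPM under the KO label and 68.3 ± 3.93 CPM under the WT label (SD, n = 2 each), a log2 fold change of -4.30 (SE 0.12), or a level 19.7-fold higher under the WT label. Leaving out any 1 library gave -4.50 to -4.11. It was the 21st largest fall among 14200 genes, and the largest fall among the 8389 genes that reached 10 CPM in the higher group. Adcy1 was picked for its fall and reached 10 CPM under the WT label only, so these ranks are a description and no support.

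**Figure D1:**
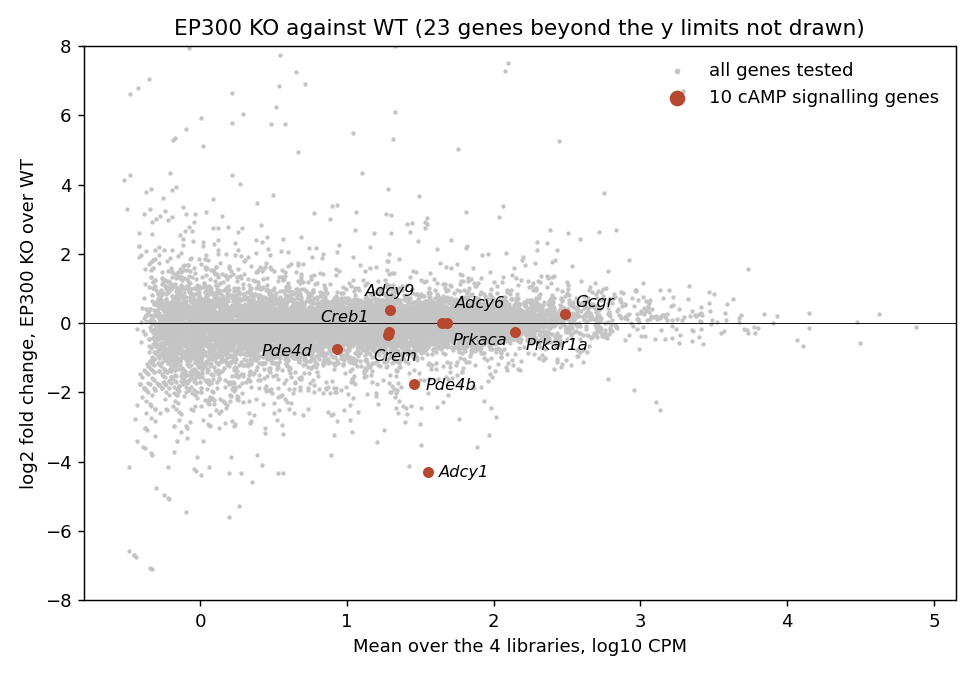
Each grey point is 1 of the 14200 genes tested, by its mean over the 4 libraries (x axis, log10 CPM) and its log2 fold change, EP300 KO over WT (y axis); red points are the 10 cAMP signalling genes, and 23 genes beyond a log2 change of 8 are not drawn. Adcy1, at -4.30, lies at the lower edge of the cloud for its level, Pde4b lies at -1.77 and the other 8 lie between -0.75 and 0.36.

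The cyclases next in level, Adcy6 and Adcy9, showed no such fall. Adcy6, a calcium-inhibited cyclase expressed in many tissues, had 48.3 and 48.7 CPM in the KO-labelled libraries, against 47.7 and 48.2 CPM in the WT-labelled libraries. The groups missed each other by less than 1 CPM, the log2 fold change was 0.02 (SE 0.07), and its sign turned to -0.05 with library size alone as the scaling. Adcy9, a broadly expressed cyclase that responds weakly to forskolin, had 23.9 and 20.3 CPM in the KO-labelled libraries, against 16.0 and 18.3 CPM in the WT-labelled libraries. Both KO-labelled values were higher, with a log2 fold change of 0.36 (SE 0.11) that ran from 0.25 to 0.48 as each library was left out. Of the 7 cyclases outside the 10 genes, 4 were tested and 0 passed edgeR's test in either direction. At an unadjusted p of 0.05, edgeR gave 1 higher (Adcy3) and 0 lower, DESeq2, which tested all 7, gave 0 higher and 1 lower, and with adjustment DESeq2 and limma-voom both called 0. Their median log2 fold change was 0.05, against -0.01 over all genes tested, and it turned to -0.01 with library size alone and to -0.26 with no filter on low counts, which took in all 7. As libraries were left out, 5 of the 7 were tested in some fits, and 1 was higher (Adcy3) and 1 lower (Adcy2) without KO replicate 1, and 0 higher and 1 lower (Adcy2) without WT replicate 1. Adcy2, Adcy8 and Adcy10 were below the filter, all with lower means in the KO-labelled libraries. Adcy2 had 0.174 and 0.0575 CPM under the KO label, against 0.474 and 0.935 CPM under the WT label. Adcy7 had 14.1 and 13.9 CPM in the KO-labelled libraries, against 13.4 and 13.7 CPM in the WT-labelled libraries. Adcy3 had 3.30 and 5.06 CPM under the KO label, against 2.95 and 2.86 CPM under the WT label, at a log2 fold change of 0.53 (SE 0.24) that did not pass (adjusted p = 0.114).

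To compare cyclases with each other, CPM were divided by exon length in kilobases. On this length-scaled level the order in the KO-labelled libraries was Adcy6 (7.15 ± 0.038), Adcy9 (4.25 ± 0.491), Adcy7 (2.08 ± 0.016), Adcy4 (1.36 ± 0.164), Adcy3 (0.669 ± 0.199) and Adcy1 (0.276 ± 0.051), all SD with n = 2, and the other 4 cyclases were lower still. In the WT-labelled libraries Adcy1 (5.46 ± 0.314) came second after Adcy6 (7.07 ± 0.0537), followed by Adcy9 (3.30 ± 0.311), Adcy7 (2.01 ± 0.0306), Adcy4 (1.30 ± 0.170) and Adcy3 (0.465 ± 0.0103). Neighbours in both orders were further apart than their SDs. Adcy1 made up 1.48% and 1.99% of the length-scaled level summed over the 10 cyclases in the KO-labelled libraries, against 28.8% and 25.9% in the WT-labelled libraries. The summed level was 15.9 ± 0.380 under the KO label and 20.0 ± 0.342 under the WT label (SD, n = 2 each). With Adcy1 taken out it was 15.7 ± 0.431 under the KO label and 14.5 ± 0.656 under the WT label, so that without Adcy1 the KO-labelled sum was the higher one. The share of Adcy6 was 44.9% in the KO-labelled libraries and 35.5% in the WT-labelled libraries, with its own level close to the same.

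**Figure D2:**
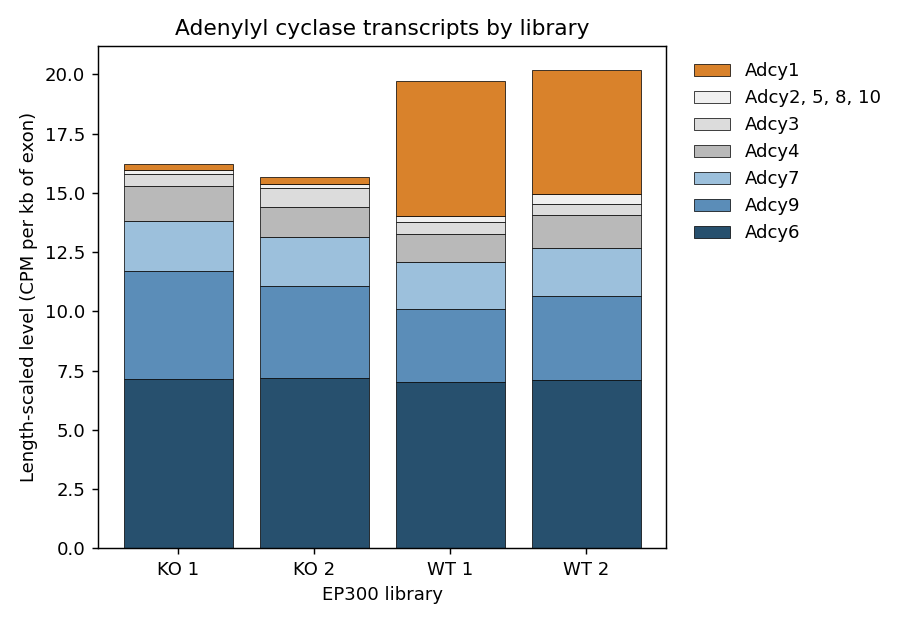
Bars stack the length-scaled levels (CPM per kb of exon, y axis) of the adenylyl cyclases in each of the 4 libraries (x axis). The Adcy1 block is 0.240 and 0.312 high in the KO libraries and 5.68 and 5.23 high in the WT libraries, while the blocks of Adcy6 and Adcy9 are of similar height or higher in the KO libraries.

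The genes whose 4 values most resembled those of Adcy1 were sought among 8136 named genes that reached 10 CPM in the higher group, by the root mean square difference of log2 CPM centred on each gene's own mean. The closest 5 were Cyp3a16, a cytochrome P450 gene of the immature liver (0.322), H19, an imprinted noncoding RNA of fetal liver (0.361), Rsad2, an interferon-induced antiviral gene (0.392), Ocstamp, a gene of osteoclast fusion (0.451), and Ighg1, an immunoglobulin heavy chain constant region (0.527). H19 had 10.1 and 13.7 CPM in the KO-labelled libraries, against 141 and 143 CPM in the WT-labelled libraries. Rsad2 had 4.63 and 5.52 CPM under the KO label, against 59.0 and 58.5 CPM under the WT label. Cyp3a16 had 1.10 and 0.977 CPM under the KO label, against 15.6 and 13.5 CPM under the WT label. Cyp3a16 and Ighg1 belong to families of near-identical genes, so their counts are uncertain. All 5 had both KO-labelled libraries low and both WT-labelled libraries high, and with 4 libraries the measure sees little more than the size of that step.

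Since cAMP is also set by its breakdown, the phosphodiesterases came next. Pde4b, a cAMP-specific phosphodiesterase of the PDE4 subfamily known to be induced by cAMP itself, had 13.5 and 12.6 CPM in the KO-labelled libraries, against 43.0 and 45.9 CPM in the WT-labelled libraries. Both KO-labelled values were well below both WT-labelled values, with a log2 fold change of -1.77 (SE 0.09). It was the 281st largest fall of 14200. Pde4d, another PDE4 gene, had 5.32 and 7.53 CPM in the KO-labelled libraries, against 10.9 and 10.7 CPM in the WT-labelled libraries. The WT-labelled libraries lay close together and above both others, and the KO-labelled libraries were apart from each other. The log2 fold change of Pde4d was -0.75 (SE 0.16), and it depended on which KO-labelled library was kept, from -1.02 without KO replicate 2 to -0.51 without KO replicate 1.

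Of 14 further cAMP phosphodiesterase genes, 11 were tested, of which 3 rose and 1 fell, with a median log2 fold change of 0.21. The share passing in either direction over all genes tested was 34.2%. Pde4a, of the same subfamily, had 5.15 and 5.40 CPM in the KO-labelled libraries, against 7.79 and 8.78 CPM in the WT-labelled libraries (log2 fold change -0.65, SE 0.16, edgeR adjusted p = 0.0049). Pde4c, the remaining PDE4 gene, went the other way, with 19.3 and 21.3 CPM under the KO label against 16.7 and 15.6 CPM under the WT label (log2 fold change 0.33, SE 0.10, edgeR adjusted p = 0.0231). Pde8a, which has a high affinity for cAMP, had 31.9 and 30.0 CPM under the KO label against 24.9 and 24.2 CPM under the WT label (log2 fold change 0.34, SE 0.09, edgeR adjusted p = 0.00643). Pde1b, a calmodulin-dependent gene at a low level here, had 5.21 and 4.14 CPM under the KO label against 3.05 and 2.81 CPM under the WT label (log2 fold change 0.67, SE 0.22, edgeR adjusted p = 0.0273). The list's median was 0.12 without KO replicate 1. It had 0 higher and 1 lower (Pde4a) without WT replicate 1, and 0 in both directions without WT replicate 2 and with DESeq2. The calls for Pde4c and Pde1b were also lost without KO replicate 2 (adjusted p = 0.0839) and without KO replicate 1 (adjusted p = 0.152) in turn. Pde3b, the insulin-activated phosphodiesterase and the largest length-scaled contribution, had 82.0 and 77.2 CPM in the KO-labelled libraries, against 70.7 and 72.1 CPM in the WT-labelled libraries, and did not pass (edgeR adjusted p = 0.082).

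The length-scaled level summed over the 16 phosphodiesterases was 25.0 ± 0.584 under the KO label and 25.0 ± 0.0649 under the WT label (SD, n = 2 each), so the sum differed by less than the spread. Its makeup differed. Pde4b took 5.06% and 4.86% of it in the KO-labelled libraries, against 16.3% and 17.3% in the WT-labelled libraries. The 4 PDE4 genes together were at 6.09 ± 0.335 under the KO label and 9.09 ± 0.139 under the WT label, while Pde3b and Pde8a had shares of 35.0% and 30.7% under the KO label and 31.3% and 24.2% under the WT label.

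**Figure D3:**
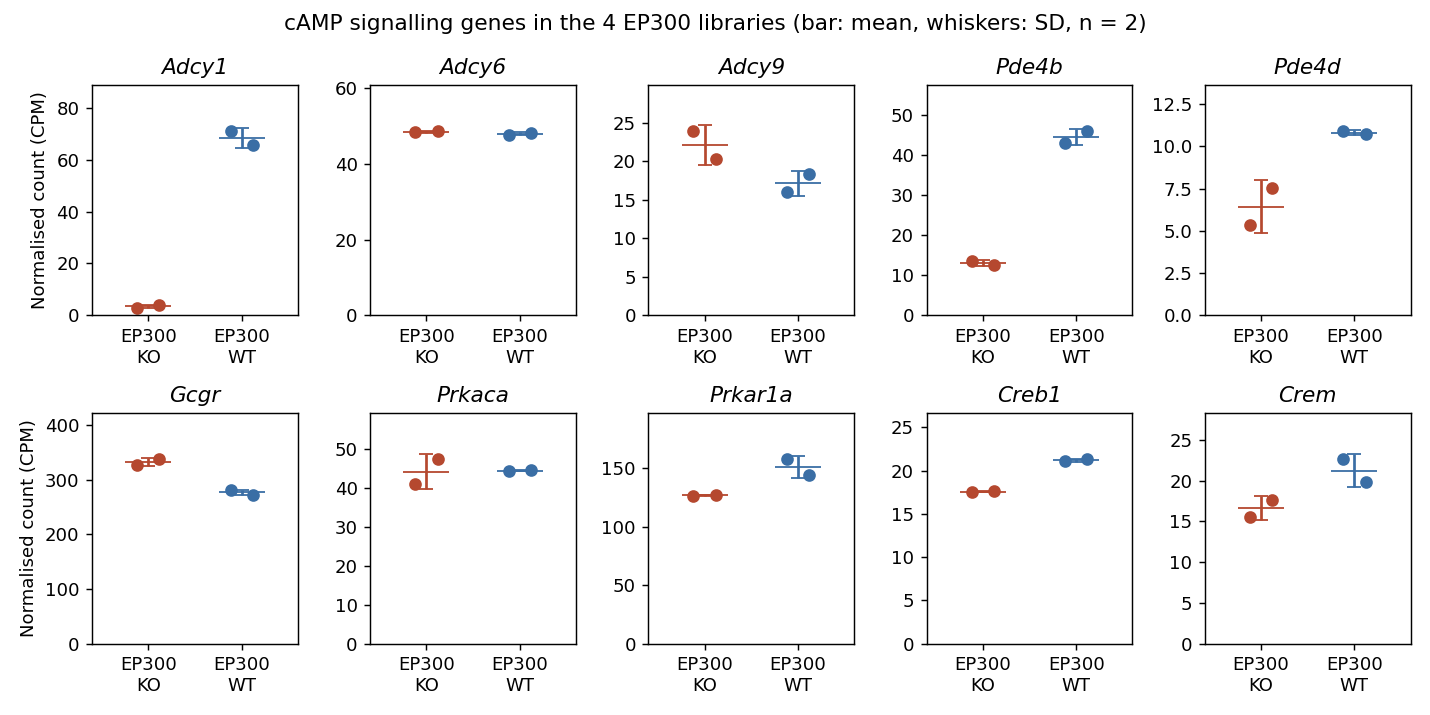
Each panel shows 1 of the 10 genes, with normalised count (CPM, y axis from 0) for the EP300 KO libraries at the left and the EP300 WT libraries at the right; points are libraries, bars are means and whiskers are SD (n = 2). The groups are separate in 9 panels and overlap in the Prkaca panel, and the panels of Adcy1 (log2 fold change -4.30) and Pde4b (-1.77) show the widest gaps against the level.

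Upstream of the cyclases, Gcgr, the glucagon receptor, had 327 and 337 CPM in the KO-labelled libraries, against 281 and 273 CPM in the WT-labelled libraries. Both KO-labelled values were higher, by 0.26 on the log2 scale (SE 0.06). Of 20 other receptors that couple to the stimulatory G protein (or their partner proteins), 12 were tested, of which 0 rose and 3 fell by edgeR's test, with a median log2 fold change of -0.40. DESeq2 and limma-voom gave the same count of 0 higher and 3 lower, edgeR at an unadjusted p of 0.05 gave 0 and 4, and 8 receptors were too low to test. The median was -0.66 without WT replicate 1 and -0.27 without KO replicate 2. It was -0.18 with no filter on low counts and -0.18 with DESeq2, both of which took in all 20. Calcrl, the calcitonin receptor-like receptor of endothelium, had 8.91 and 7.13 CPM under the KO label against 15.1 and 14.2 CPM under the WT label, and fell by 0.87 (SE 0.13, edgeR adjusted p = 0.000105). Glp2r, the receptor of glucagon-like peptide 2, had only 8 and 9 counts in the KO-labelled libraries, against 46 and 52 in the WT-labelled libraries (log2 fold change -2.37, SE 0.36, edgeR adjusted p = 9.52e-05). The calls for Calcrl and Glp2r held in all alternatives that gave a value. Gcgr made up 90.1% and 90.5% of the length-scaled level of all receptors on the list in the KO-labelled libraries, against 82.1% and 81.2% in the WT-labelled libraries.

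Calcrl is known from endothelium, and markers of other liver cells were read beside these values. Of 10 endothelial markers, 0 rose and 6 fell by edgeR's test (0 and 5 by DESeq2, and 0 and 3 without WT replicate 1), and their summed level was 266 and 239 CPM in the KO-labelled libraries, against 319 and 312 CPM in the WT-labelled libraries. Of 10 stellate cell and fibroblast markers, 0 rose and 5 fell (0 and 3 by DESeq2, and 1 and 6 at edgeR's unadjusted p of 0.05), with sums of 193 and 184 CPM under the KO label against 296 and 287 CPM under the WT label. Biliary markers gave 0 higher and 3 lower of 7 tested (165 and 166 CPM against 201 and 206 CPM), and macrophage markers 3 higher and 3 lower of 10 (856 and 869 CPM against 961 and 955 CPM), KO-labelled libraries first in both. Without WT replicate 1 only 1 stellate marker fell, and 3 did without WT replicate 2. The macrophage counts were 1 higher and 1 lower without WT replicate 2, and 2 and 1 without WT replicate 1. In bulk RNA, fewer cells of a type and less RNA per cell cannot be told apart, and the part of these shifts in the values of Adcy1, Pde4b and the receptors was not tested. Hepatocyte markers summed to 107910 and 110876 CPM in the KO-labelled libraries and to 114218 and 113737 CPM in the WT-labelled libraries, with 6 of 10 higher and 3 lower (5 and 1 without WT replicate 1 or WT replicate 2), so the labelled cell type dominated all 4 libraries. Neural and Schwann cell markers were read because Adcy1 is best known from neurons. They summed to 12.6 and 9.54 CPM under the KO label, against 6.85 and 7.02 CPM under the WT label. Of these 10 markers, 8 had a mean below 1 CPM, and 1 of the 4 tested rose (Syt1). Snap25, Stmn2 and Elavl4 had 0 counts in all 4 libraries. The sums are low and rest on few genes, and any part of neural cells in the values of Adcy1 was not tested. Lymphocyte markers summed to 1.33 and 2.41 CPM under the KO label, against 1.74 and 2.03 CPM under the WT label, and the 1 of 10 that was tested (Cd4) did not pass.

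Between receptors and cyclases stand the G protein alpha subunits, of which 5 of 7 were tested and 1 rose and 1 fell. Of all genes tested, 34.2% passed. Gnas, which encodes the stimulatory subunit, had 33.6 and 43.5 CPM in the KO-labelled libraries, against 17.3 and 25.5 CPM in the WT-labelled libraries (log2 fold change 0.85, SE 0.15, edgeR adjusted p = 0.000271). The libraries of each label were far apart, the call was lost with no filter on low counts (adjusted p = 0.095), and 22.0% of the exon length of Gnas is shared with other genes, so its count is uncertain. Gnai2, which encodes an inhibitory subunit, had 143 and 156 CPM under the KO label against 168 and 171 CPM under the WT label (log2 fold change -0.18, SE 0.06, edgeR adjusted p = 0.0357), a call lost without KO replicate 1, WT replicate 1 or WT replicate 2 (adjusted p = 0.165, 0.213 and 0.307).

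Of the PKA genes, the regulatory subunits Prkar1a and Prkar2a differed between the labels, and the catalytic subunit Prkaca differed little. Prkaca, the main catalytic subunit, had 40.9 and 47.2 CPM in the KO-labelled libraries, against 44.3 and 44.4 CPM in the WT-labelled libraries. Here the KO-labelled values lay on both sides of the WT-labelled values, and the log2 fold change of -0.01 (SE 0.08) took either sign as KO-labelled libraries were left out (-0.11 to 0.10). Prkar1a, the type I regulatory subunit, had 126 and 127 CPM in the KO-labelled libraries, against 158 and 144 CPM in the WT-labelled libraries. Both KO-labelled values were lower, with a log2 fold change of -0.25 (SE 0.06) that ran from -0.30 to -0.18 as each library was left out. Prkar2a, the type II regulatory subunit, had 91.8 and 78.8 CPM in the KO-labelled libraries, against 62.3 and 64.6 CPM in the WT-labelled libraries, and rose by 0.43 on the log2 scale (SE 0.08, edgeR adjusted p = 0.000415). It was the only 1 of the 5 other PKA subunit and inhibitor genes tested that passed. The length-scaled ratio of Prkar2a to Prkar1a was 0.456 ± 0.0520 under the KO label and 0.286 ± 0.0253 under the WT label, whereas that of all regulatory to all catalytic subunits was 1.92 ± 0.218 under the KO label and 2.03 ± 0.101 under the WT label (SD, n = 2 each). The balance between regulatory subunits thus differed by more than the spread, and the ratio of regulatory to catalytic subunits did not.

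A-kinase anchoring proteins, which tether PKA to sites in the cell, gave 2 higher and 1 lower of 9 tested. The share passing over all genes tested was 34.2%. Akap13 had 98.8 and 90.9 CPM in the KO-labelled libraries, against 72.7 and 74.6 CPM in the WT-labelled libraries (log2 fold change 0.36, SE 0.07, edgeR adjusted p = 0.0005). Akap8 rose by 0.28 and Akap12 fell by 0.61, and both calls were lost without WT replicate 2 (edgeR adjusted p = 0.0528 and 0.142), that of Akap8 also without WT replicate 1 (adjusted p = 0.172). Of 6 other cAMP effector genes tested, 2 rose and 1 fell. Rapgef4, which encodes EPAC2, an exchange factor for Rap that cAMP opens without PKA, had 263 and 242 CPM in the KO-labelled libraries, against 199 and 202 CPM in the WT-labelled libraries (log2 fold change 0.33, SE 0.06, edgeR adjusted p = 0.000439). Rap1b, a Rap protein, fell by 0.31, a call lost without WT replicate 2 (edgeR adjusted p = 0.187), and Hcn3, a channel gene with 17.1% of its exon length shared, rose by 0.43, a call lost without KO replicate 1, WT replicate 1 or WT replicate 2 (edgeR adjusted p = 0.0575, 0.127 and 0.0946).

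**Figure D4:**
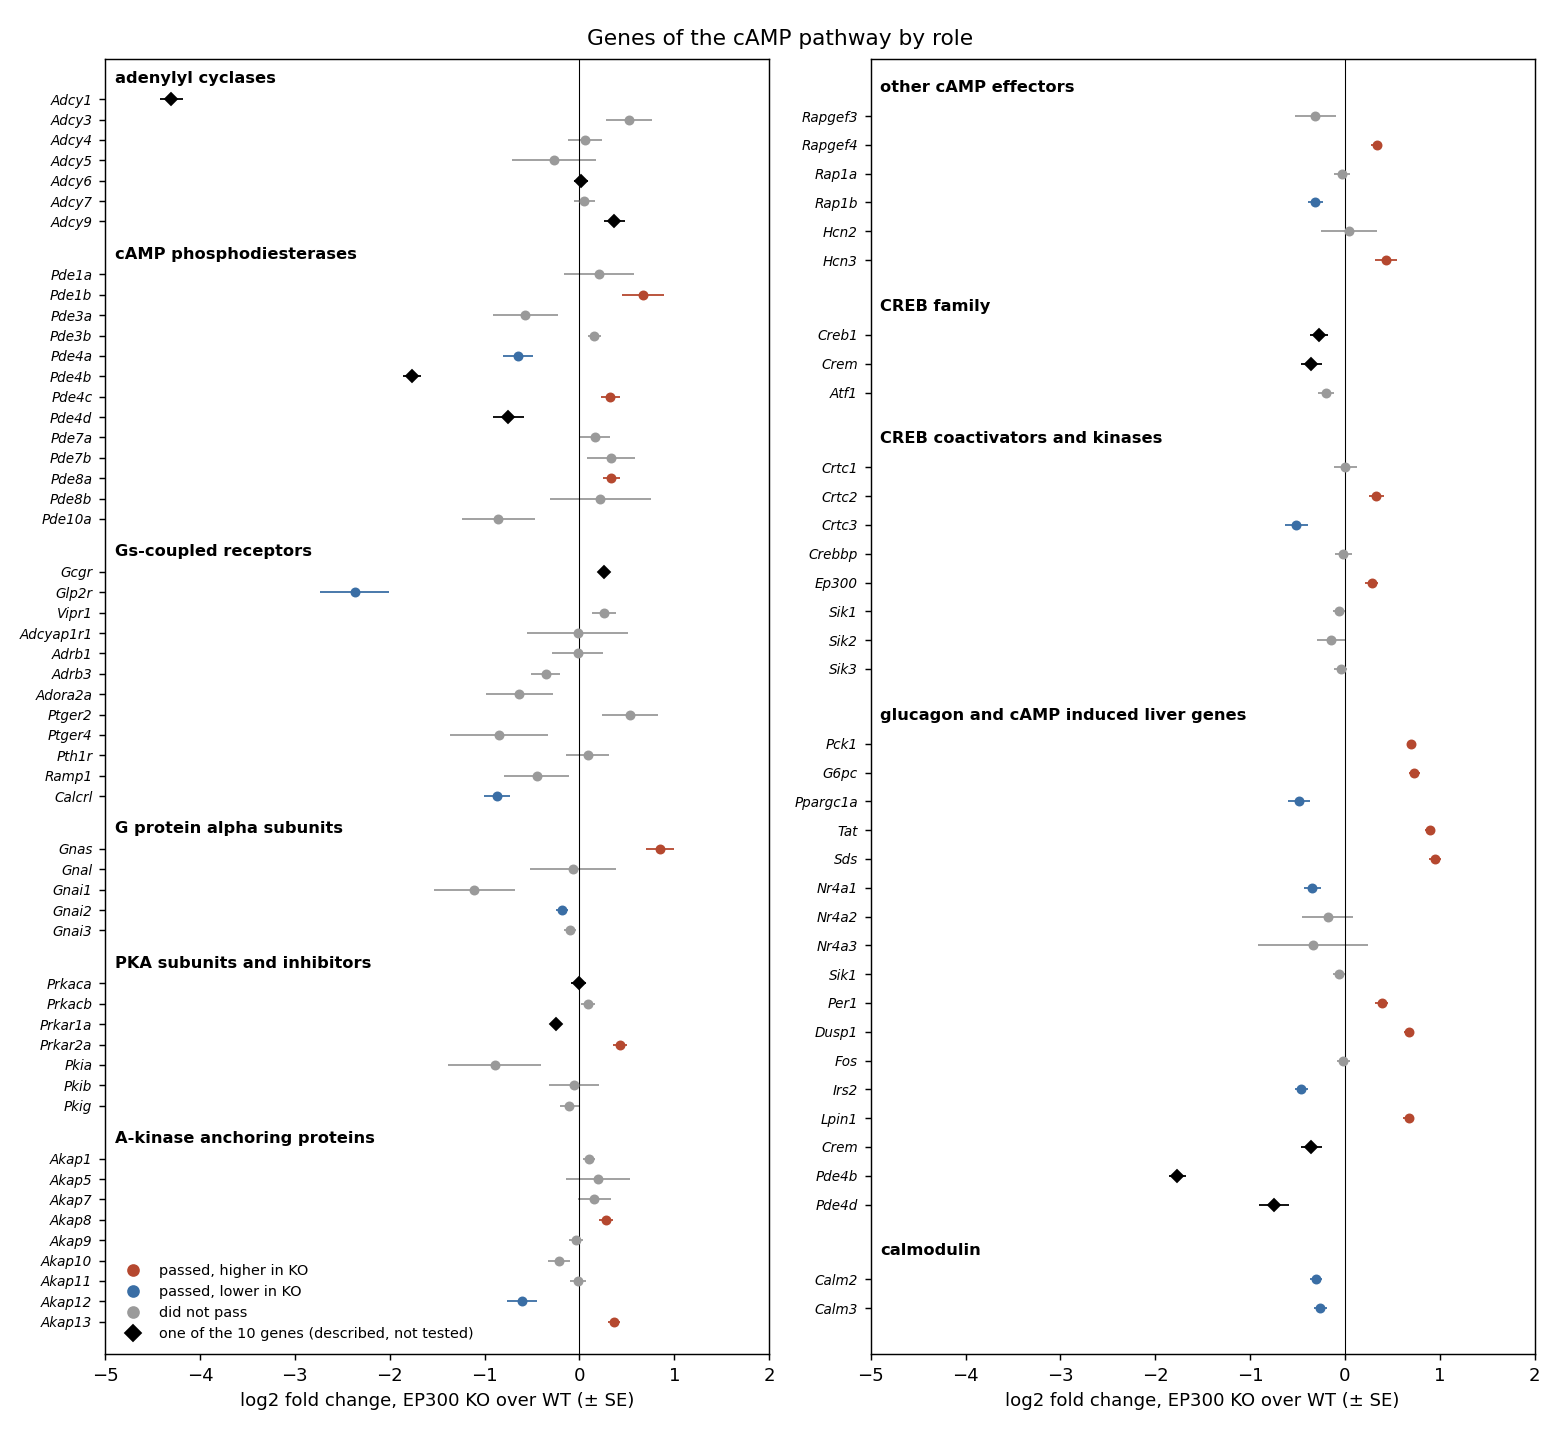
Log2 fold changes, EP300 KO over WT (x axis, whiskers are SE), of genes of the pathway lists by role. Red and blue circles passed edgeR's test higher and lower, and grey circles did not pass. Black diamonds are the 10 genes, which are shown as a description with no call marked. Most genes lie within 1 of 0, with Adcy1 at -4.30, Glp2r at -2.37 and Pde4b at -1.77 to the left.

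At the level of transcription factors, Creb1, the factor that PKA phosphorylates, had 17.5 and 17.6 CPM in the KO-labelled libraries, against 21.1 and 21.3 CPM in the WT-labelled libraries. The libraries of each label were nearly equal and the labels were apart, with a log2 fold change of -0.27 (SE 0.10). DESeq2 gave the same size with a wider SE (-0.27, SE 0.16), and 2 libraries a label measure such closeness poorly. Crem, a related gene that also gives rise to the cAMP-induced repressor ICER, had 15.6 and 17.6 CPM in the KO-labelled libraries, against 22.6 and 19.8 CPM in the WT-labelled libraries. Both KO-labelled values were lower, by a log2 fold change of -0.35 (SE 0.11), and 8.01% of its exon length is shared with another gene. Atf1, the remaining gene of this family, had 29.1 and 28.9 CPM under the KO label against 33.8 and 32.9 CPM under the WT label, a difference of -0.20 on the log2 scale (SE 0.08) that did not pass (adjusted p = 0.0708 by edgeR). The length-scaled level summed over the 3 genes was 13.6 ± 0.207 under the KO label and 16.0 ± 0.540 under the WT label (SD, n = 2 each). Among 8 coactivators and kinases of CREB, 2 rose, Ep300 itself included, and 1 fell, beside 34.2% passing over all genes tested. Crebbp, the close relative of EP300, had 44.2 and 36.2 CPM in the KO-labelled libraries, against 41.2 and 40.1 CPM in the WT-labelled libraries (log2 fold change -0.02, SE 0.09, edgeR adjusted p = 0.904). Of the CREB-regulated transcription coactivators, Crtc2, the main one in liver, rose by 0.33 and Crtc3 fell by 0.51 (edgeR adjusted p = 0.00302 and 0.00317). The call for Crtc2 was lost without WT replicate 1 or 2 (edgeR adjusted p = 0.0531 and 0.0776), and that for Crtc3 without WT replicate 1 (adjusted p = 0.111).

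Over the 10 genes, 2 passed edgeR's test as higher in the KO-labelled libraries (Adcy9 and Gcgr) and 6 as lower. The other 2 (Adcy6 and Prkaca) did not pass, and 9 had groups that did not overlap. The calls were 1 higher and 2 lower with no filter on low counts, and 1 and 4 with DESeq2. The background was 34.2% of genes passing and 66.4% not overlapping, and since the genes were chosen on this contrast, nothing is read from their counts. As each library was left out in turn, 0 to 2 of the 10 were higher and 2 to 5 lower. Of the 105 other pathway genes, 77 were tested, of which 18 rose, 13 fell and 46 did not pass, with a median log2 fold change of -0.02 against -0.01 over all genes tested.

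Genes known to be induced by glucagon or cAMP in liver form the output of the pathway. Of 14 such genes outside the 10, all tested, 7 rose, 3 fell and 4 did not pass, with a median log2 fold change of 0.18. The median moved both ways, to 0.57 without WT replicate 1 and to 0.14 without WT replicate 2. It was 0.52 over the 12 genes left at a minimum count of 50, and 0.12 with library size alone as the scaling. Without WT replicate 1 the counts were 7 higher and 1 lower, and without WT replicate 2 they were 6 and 1. The 4 named enzymes of gluconeogenesis and amino acid breakdown were among those that rose. Pck1, which encodes the enzyme that commits oxaloacetate to gluconeogenesis, had 5340 and 5301 CPM in the KO-labelled libraries, against 3327 and 3245 CPM in the WT-labelled libraries (log2 fold change 0.70, SE 0.04, edgeR adjusted p = 4.94e-09). G6pc, which encodes glucose-6-phosphatase, had 670 and 596 CPM in the KO-labelled libraries, against 390 and 372 CPM in the WT-labelled libraries (log2 fold change 0.73, SE 0.06, edgeR adjusted p = 1.65e-07). Tat, for tyrosine aminotransferase, had 4057 and 3611 CPM in the KO-labelled libraries, against 2051 and 2068 CPM in the WT-labelled libraries (log2 fold change 0.90, SE 0.05, edgeR adjusted p = 2.99e-09). In each of these both KO-labelled libraries were above both WT-labelled ones. Sds, for serine dehydratase, rose by 0.95 (SE 0.06, edgeR adjusted p = 8.47e-09), with 29.6% of its exon length shared with another gene. The remaining risers were Dusp1, a phosphatase of MAP kinases (0.68), Lpin1, a phosphatidate phosphatase (0.67), and Per1, a clock gene (0.39, a call lost without WT replicate 2 at edgeR adjusted p = 0.0508). Pck1, Dusp1, Lpin1 and Per1 were named after their values were seen.

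The 3 that fell were Ppargc1a, Irs2 and Nr4a1. Ppargc1a, a coactivator of gluconeogenic genes, had 15.1 and 12.3 CPM in the KO-labelled libraries, against 19.4 and 18.9 CPM in the WT-labelled libraries (log2 fold change -0.48, SE 0.12, edgeR adjusted p = 0.00404). Irs2, an adaptor of the insulin receptor, had 58.6 and 59.7 CPM in the KO-labelled libraries, against 86.2 and 76.4 CPM in the WT-labelled libraries (log2 fold change -0.46, SE 0.07, edgeR adjusted p = 0.000139). Nr4a1, an immediate early nuclear receptor, had 54.6 and 68.6 CPM in the KO-labelled libraries, against 79.4 and 77.1 CPM in the WT-labelled libraries (log2 fold change -0.35, SE 0.09, edgeR adjusted p = 0.00622). Without WT replicate 1 or WT replicate 2, Ppargc1a (adjusted p = 0.0838 and 0.0813) and Nr4a1 (adjusted p = 0.141 and 0.134) lost the call, and Irs2 kept it. Crem, Pde4b and Pde4d are themselves cAMP-induced, and with them the list held 7 higher and 6 lower of 17 and its median was -0.06. Fos, an immediate early gene, had 198 and 231 CPM in the KO-labelled libraries, against 221 and 214 CPM in the WT-labelled libraries, and the groups overlapped.

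**Figure D5:**
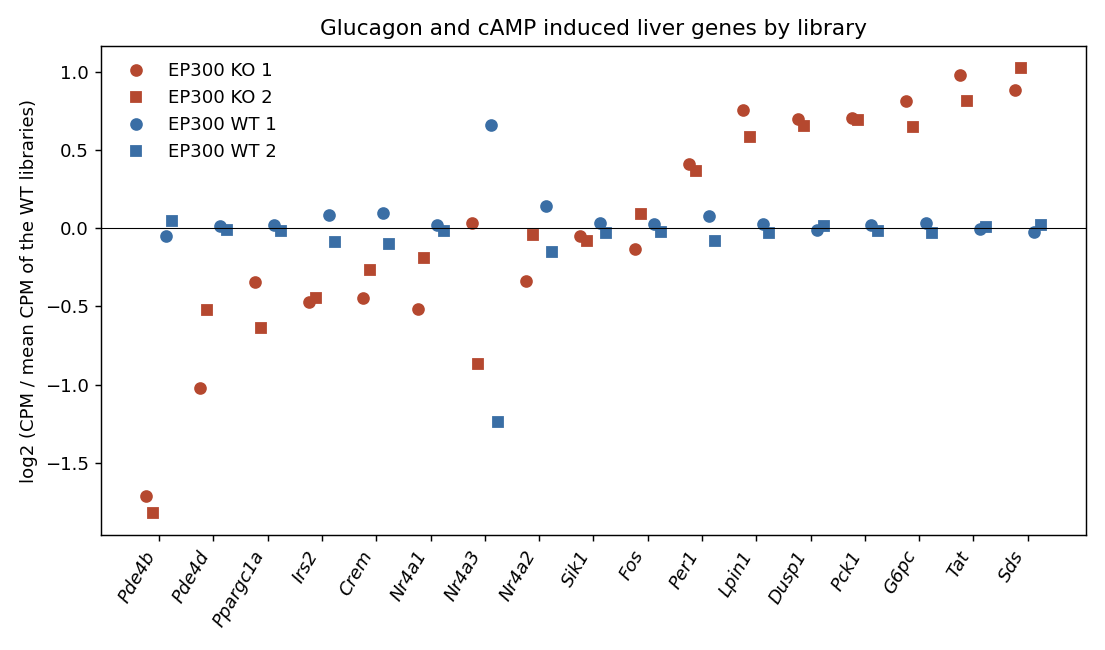
For each liver gene known to be induced by glucagon or cAMP (x axis), points give log2 of CPM over the mean CPM of the WT libraries (y axis) in the 2 KO and the 2 WT libraries. The KO points of Tat, Sds, G6pc and Pck1 sit above the line at 0 and those of Pde4b, Pde4d, Ppargc1a and Irs2 below it.

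Calmodulin carries calcium to Adcy1 and to the PDE1 enzymes, and its 3 genes gave 0 higher and 2 lower by edgeR's test (0 and 1 by DESeq2). Calm2 had 89.4 and 92.9 CPM in the KO-labelled libraries, against 110 and 115 CPM in the WT-labelled libraries (log2 fold change -0.31, edgeR adjusted p = 0.00127). Calm3 fell by 0.26 (edgeR adjusted p = 0.00865). The call for Calm3 was lost without WT replicate 1 or WT replicate 2 (edgeR adjusted p = 0.0565 and 0.204), and that for Calm2 without WT replicate 2 (adjusted p = 0.0852).

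Promoters of the genes were searched for the cAMP response element, since CREB1, CREM and ATF1 bind it. The full element, TGACGTCA, and its half-site, TGACG or CGTCA on the other strand, were looked for in windows from 250 bases before to 50 bases after each RefSeq start (GRCm38.p6), and a full element counts as both. Windows were found for 8 of the 10 genes, 17 in all, with Adcy6 and Crem named only. The full element was in 2 of them (11.8%), against 588 of 32851 windows (1.79%). Those 2 are overlapping windows of Prkar1a that hold the same element and share half-sites, so the window shares count them more than once. A half-site was in 6 (35.3%), against 6837 (20.8%), and these belonged to Adcy9, Pde4b, Prkaca and Prkar1a. By gene, the full element was in 1 of 8, against 549 of 27025 genes with a window. A half-site was in 4 of 8, against 6228 of 27025. Among the cAMP-induced genes, Pde4b and Pde4d of the 10 included, 10 of 18 windows (55.6%) held a half-site. By gene it was 9 of 14. The windows printed are first those of Adcy1, which had the largest fall of the 10 genes, and Pde4b, the next largest. Then come those of Prkar1a, the only 1 of the 8 genes with the full element, and Pck1, an induced gene that rose. Capitals mark the element and half-sites, and all are 5′ to 3′.
Adcy1, chr11:7063183-7063482, plus strand: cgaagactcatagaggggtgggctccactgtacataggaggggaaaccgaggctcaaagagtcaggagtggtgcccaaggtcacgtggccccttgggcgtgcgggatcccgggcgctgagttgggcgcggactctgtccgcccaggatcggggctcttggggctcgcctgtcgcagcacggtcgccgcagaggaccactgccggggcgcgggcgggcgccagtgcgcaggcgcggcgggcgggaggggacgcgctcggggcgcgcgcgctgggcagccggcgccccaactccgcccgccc
Pde4b, chr4:102421305-102421604, plus strand: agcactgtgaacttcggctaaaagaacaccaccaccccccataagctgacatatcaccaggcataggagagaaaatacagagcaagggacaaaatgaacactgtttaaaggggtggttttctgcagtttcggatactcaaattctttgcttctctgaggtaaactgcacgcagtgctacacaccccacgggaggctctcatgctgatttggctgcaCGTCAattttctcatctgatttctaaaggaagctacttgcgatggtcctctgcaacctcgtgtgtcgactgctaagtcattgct
Prkar1a, chr11:109650699-109650998, plus strand: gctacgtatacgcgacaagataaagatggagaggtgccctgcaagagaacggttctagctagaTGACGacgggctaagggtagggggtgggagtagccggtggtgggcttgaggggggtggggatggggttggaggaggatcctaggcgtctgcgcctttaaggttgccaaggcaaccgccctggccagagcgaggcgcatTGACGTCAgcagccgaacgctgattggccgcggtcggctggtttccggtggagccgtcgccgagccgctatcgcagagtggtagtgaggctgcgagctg
Pck1, chr2:173152823-173153122, plus strand: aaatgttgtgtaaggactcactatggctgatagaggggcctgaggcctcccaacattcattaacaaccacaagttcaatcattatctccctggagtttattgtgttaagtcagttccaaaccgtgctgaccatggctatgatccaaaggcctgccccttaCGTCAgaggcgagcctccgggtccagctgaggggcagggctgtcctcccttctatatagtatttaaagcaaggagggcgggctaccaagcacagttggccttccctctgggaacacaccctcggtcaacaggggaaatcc
The Adcy1 window has no match and a GC content of 74.0%, against a median of 52.7% over all windows. The printed Pde4b window has 1 half-site, whose first base is at position -34 from the start, and the Pck1 window has 1 at position -90. In Prkar1a the full element begins at position -49. The other 3 of the 4 Pde4b windows have no match, like that of Adcy1, and Prkar1a, with the full element, had a log2 fold change of -0.25. A match is a stretch of letters and not a measured site, and no match says only that these letters are not in this window.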

How the data were processed

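Gene expression was measured by RNA sequencing of sorted mouse hepatocytes, from samples titled HCC in the EP300 experiment. For the EP300 experiment the authors deposited raw counts, whole reads per gene, in 1 table; 4 of its columns match no sample and were not used. The library kit, TruSeq RNA per the labels' protocols, keeps no strand information. STAR, HTSeq, DESeq2 and mm10 appear in the submitters' processing notes without roles; the annotation and strand setting are not given in the sources used here. Coordinates and exon lengths come from GENCODE M21 (mm10). Symbols come from a separate list of gene names, which named 55144 of 55385 identifiers.

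Counts were tested with edgeR 4.0.16 in R 4.3.3: its quasi-likelihood test after TMM normalization, on genes kept by filterByExpr (minimum count 10), with a term for group only, 2 residual degrees of freedom and a Benjamini-Hochberg threshold of 0.05. CPM use the TMM-adjusted library size. The common biological coefficient of variation was 5.47%. Libraries of 1 label differed by more than sampling noise (chi-square per degree of freedom 5.78 in KO and 2.70 in WT). The 10 genes, the lists and the tests were chosen with earlier results of these data known. Named genes were the 10 genes, Ep300, Xist and Y-linked genes, the passing genes with the 3 largest changes in each direction of each list, and the 5 genes most like Adcy1. Alternatives were DESeq2 1.42.0, limma-voom (limma 3.58.1), other scalings and filters, leaving out the 20 most abundant genes, a 2-fold threshold, a block for replicate number, and leaving out each library. The steps were tested on simulated data. The comparison of the diet libraries was not run, and some genes of the lists are counted but not reported by name here.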

Additional observations from a re-analysis of the deposited data

How the results depend on the processing

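The number of genes called between EP300 KO and EP300 WT was 4851, and it fell to 2703 with no filter on low counts, to 2937 with DESeq2 and to 1159 when a change of at least 2-fold was asked for. Leaving out each library in turn gave 2306 to 5154, with 2602 without WT replicate 1 and 2306 without WT replicate 2. With library size alone as the scaling, 1846 of 4902 called genes were higher, against 2366 of 4851. Of the 77 tested pathway genes outside the 10, 31 were called, and 19 with no filter on low counts and 15 to 32 as each library was left out (15 without WT replicate 2). On raw counts with no division by length, Adcy1 made up 3.47% of the adenylyl cyclase counts under the KO label and 43.2% under the WT label; as each library was left out its length-scaled share was 1.48% to 1.99% under the KO label and 25.9% to 28.8% under the WT label. The other alternatives kept both counts within 1.5 times. Of 27 other named genes, 10 kept their call and sign under all alternatives, 17 lost the call under at least 1 and 0 changed sign. The cause of these losses was not tested.

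The labels number the libraries in both groups but tie no number to an animal, litter or day. Same-numbered libraries did not deviate together (correlation 0.00413 over 14200 genes), so no pairing by number was seen. Such a check on 2 libraries a group cannot exclude a small shared effect. With the replicate number as a block, 5190 genes and 32 of the pathway genes were called, and the log2 fold change of Adcy1 was -4.30. With 2 libraries a group, the differences of lowly counted genes such as Glp2r and Pde1b are the least precisely measured.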
